A study of Mus musculus with 8 samples.

Results

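Macrophages that had taken up collagen were compared with the carcinoma cells of the same kind of tumor, to see which immune, metabolic and growth transcripts set the host phagocytes and the cancer cells apart. The comparison used 4 of the 8 RNA sequencing libraries of the study, 2 of tumor-associated macrophages (TAM) and 2 of Lewis lung carcinoma (LLC) cells, chosen by their labels. LLC is a mouse lung carcinoma cell line. The injected line had been transfected with a dTomato vector, sorted for the red fluorescence and kept in G418, and it was placed under the skin of both flanks of Col1a1-GFP mice, whose fibroblasts make green fluorescent protein. Fluorescent collagen was injected into the tumors 24 h before they were dissociated, so all groups shared the tumor cells, the reporter host and the collagen. The LLC group was every dTomato+ cell, with no collagen gate. The TAM group was dTomato-, GFP- and F4/80+ cells that were also collagen+, so macrophages without collagen were not sampled (the labels also name the group M2). The other 4 libraries, 2 of GFP+ fibroblasts and 2 of whole tumors (Total tumor), entered the estimate of spread, the choice of 1 transcript per gene and the filter on low values, and no difference is given for them. Neither the age and sex of the mice nor a separate mouse behind each library is stated, so the p-values measure the spread between these libraries, which may be technical.

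Macrophages of a tumor descend largely from blood monocytes, which the CSF1 receptor keeps alive and which the transcription factor PU.1 commits to the lineage. They engulf particles through Fc and scavenger receptors, digest them in lysosomes and present peptides on MHC class II, and the lipid, iron and amino acids set free are stored or exported. Carcinoma cells divide, and dividing cells make fatty acids, sterols, nucleotides and ribosomes. Each of these programs was followed with a list of genes.

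The values are RPKM, read counts scaled to transcript length and to sequencing depth, as deposited by the authors. A log2 difference below is TAM minus LLC on log2(RPKM + 1), and it understates the change of genes with low values. The test covered the 13311 genes that reached an RPKM of 1 in 2 or more libraries, and a gene is called higher or lower when limma's Benjamini-Hochberg adjusted p over all of them was under 0.05. Of all genes tested, 2048 (15.4%) were called higher in TAM, 3659 (27.5%) were called lower and 5707 (42.9%) were called in either direction. These shares are the background for every list below. A pair of values gives replicate 1 first, then replicate 2. In each called gene named with its levels below, the TAM and LLC libraries did not overlap. The largest differences in each direction were chosen for this, and the share over all genes tested is not given. Lack of overlap therefore adds no support to a call, here or below. Among named genes that did not pass, C3, Hk2, Slc2a1, Nos2, Vegfa and Lef1 overlapped, and Ccl2, B2m, Ifit1, Tfrc, Slc3a2, Pcna, Igf2 and Axin2 did not. At least a 2-fold difference was shown by 1869 of the higher and 3088 of the lower genes. Lower calls outnumbered higher ones to a degree that depended on the scaling: 35.9% of the calls were higher, against 44.5% after upper-quartile rescaling (2322 higher, 2891 lower) and 46.3% after quantile normalization (2379 higher, 2757 lower). The median difference over all genes was -0.38, and -0.21 and -0.15 after those rescalings. With 1 library left out the higher genes numbered 1532 (without TAM 1), 1605 (without TAM 2), 1462 (without LLC 1) and 1496 (without LLC 2). The lower genes numbered 2207, 2439, 1956 and 2323 in the same order. In the sorted libraries of bulk RNA, more expressing cells and more RNA per cell cannot be told apart.

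The estimated depth, read from the steps between low values, was 8.55 M reads in TAM 1, 4.48 M in TAM 2, 10.4 M in LLC 1 and 4.29 M in LLC 2. The depth groups thus follow the replicate number. The summed RPKM of TAM 1 and TAM 2 (619110 and 565470) exceeded that of LLC 1 and LLC 2 (502890 and 463460), and the highest sum was that of Total tumor 2 (664080). Without the Total tumor libraries 2510 genes were higher and 4845 lower. The markers fit the labels. Emr1, which encodes F4/80 and was therefore set by the gate, stood at 162 and 229.6 RPKM in TAM 1 and TAM 2 and at 0.507 and 8.74 RPKM in LLC 1 and LLC 2. C1qa, a chain of the complement starter C1q, stood at 3789 and 2436 RPKM in TAM and 15.6 and 75.1 RPKM in LLC. Hmga2, an embryonic chromatin protein that many carcinomas make again, stood at 3.86 and 4.76 RPKM in TAM and 87.9 and 90.9 RPKM in LLC, and Dkk2, a secreted Wnt regulator, at 2.87 and 4.52 RPKM in TAM and 164 and 202 RPKM in LLC. None of the 4 markers overlapped between the groups. LLC 2 held more macrophage transcripts than LLC 1: Emr1 stood at 0.259% of its TAM mean in LLC 1 and 4.47% in LLC 2, and the 26 Fc receptor and phagocyte signalling genes at a median of 0.587% and 3.82%. In the other direction, Hmga2 stood at 4.31% and 5.32% of its LLC mean in TAM 1 and TAM 2. The part of these shares in the differences below was not tested.

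**Figure D1:**
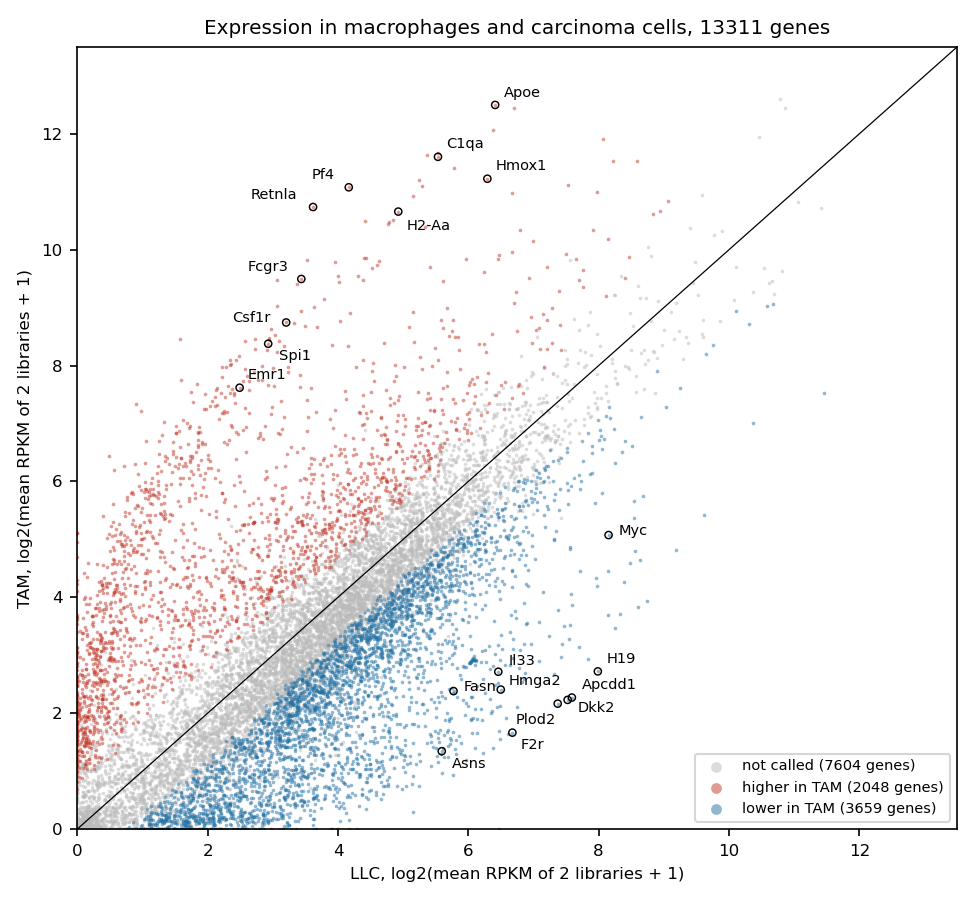
Mean RPKM of the 2 TAM libraries (vertical) against that of the 2 LLC libraries (horizontal), both as log2(mean + 1), 1 point for each of 13311 genes. Red points are the 2048 genes called higher in TAM, blue points the 3659 called lower, circles mark genes named in the text and the line marks equal values.

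The 10 largest differences in favour of TAM were taken among protein-coding genes. Retnla, a secreted resistin-like protein made by alternatively activated macrophages, had the highest log2 difference (log2 difference 7.46, SE 1.06, adjusted p = 0.00112). It stood at 1054 and 2359.6 RPKM in TAM 1 and TAM 2 and at 2.92 and 19.6 RPKM in LLC 1 and LLC 2, so its TAM libraries differed from each other by more than those of most genes named here. It was followed by the chemokine genes Pf4, Ppbp and Ccl6, the carbonyl reductase gene Cbr2, the arginase gene Arg1, the C1q chains C1qb and C1qc, and the Fc receptor subunits Fcer1g and Fcgr3, with log2 differences from 7.07 (Pf4) to 6.49 (Fcgr3). Cbr2 stood at 885 and 532 RPKM in TAM and 2.37 and 12.4 RPKM in LLC (log2 difference 6.67, SE 0.75, adjusted p = 0.000393).

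The 10 largest differences in favour of LLC were taken in the same way, which leaves out the noncoding H19 (log2 -5.11). Apcdd1, a membrane inhibitor of Wnt signalling, stood at 199.9 and 183 RPKM in LLC and 4.22 and 3.43 RPKM in TAM (log2 difference -5.32, SE 0.33, adjusted p = 0.000114). The group went on with Dkk2 (-5.31), the collagen lysyl hydroxylase gene Plod2 (-5.22), the thrombin receptor gene F2r (-5.02) and the stanniocalcin gene Stc1 (-4.98). It ended with Lrig1 (-4.98), which restrains growth factor receptors, Mxra8 (-4.95), the secreted protease gene Adamts1 (-4.93), the proteoglycan gene Lum (-4.92) and the guidance factor gene Ntn1 (-4.90). Lum and Adamts1 had means of 642 and 106 RPKM in the Fibroblast libraries, above their means of 428 and 89.1 RPKM in LLC. The rest of the group had lower means in Fibroblast than in LLC, with Mxra8 at 151 RPKM in Fibroblast. The part of fibroblast RNA in these differences was not tested. F2r stood at 94.3 and 108 RPKM in LLC and 2.51 and 1.83 RPKM in TAM (log2 difference -5.02, SE 0.30, adjusted p = 0.000114). All 20 of these genes kept their call in each of the 15 alternative analyses.

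Of 19 lineage transcription factors tested, 18 were higher in TAM, 0 were lower and 1 did not pass (median log2 difference 3.05). Spi1, which encodes PU.1, stood at 363 and 300.1 RPKM in TAM and 1.67 and 11.6 RPKM in LLC (log2 difference 5.84, SE 0.76, adjusted p = 0.000725). Irf8, needed for monocytes to form, and Irf5, which acts downstream of Toll-like receptors, differed by log2 values of 4.32 and 5.03 (adjusted p = 0.000229 and 0.000176). In each of these 3 genes the lower TAM library lay above the higher LLC library.

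**Figure D2:**
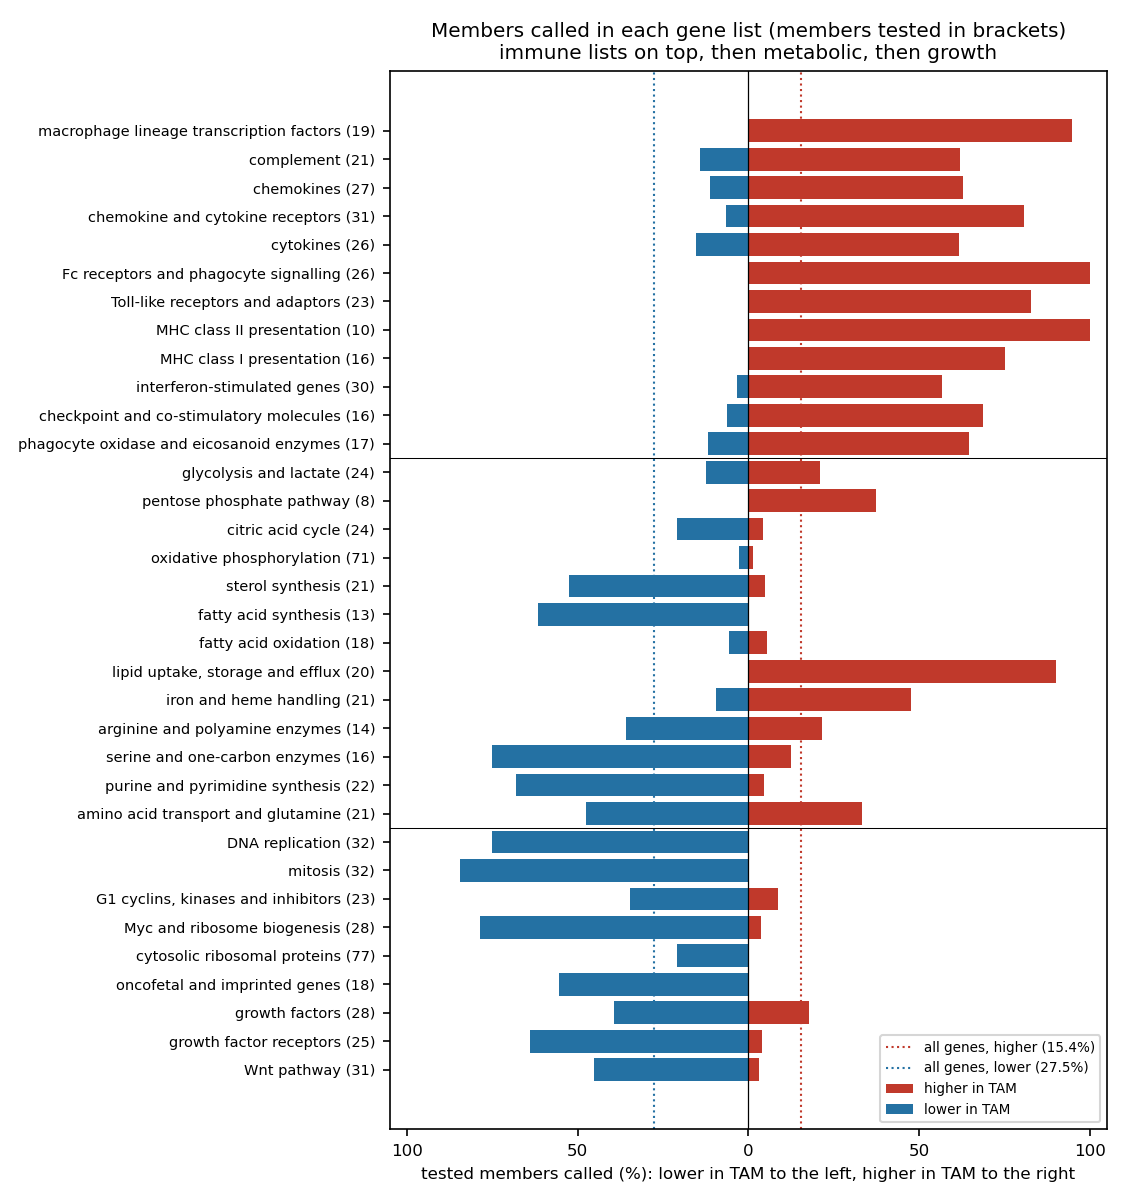
Share of the tested members of each gene list that were called higher in TAM (red, to the right) or lower (blue, to the left), in %, with the number of members tested in brackets. Dotted lines give the shares over all genes, 15.4% higher and 27.5% lower, and the immune, metabolic and growth lists are divided by black lines.

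Transcripts of the CSF1 receptor were higher in the TAM libraries and those of its ligands higher in the LLC libraries. Csf1r, the receptor for CSF1 and IL-34, stood at 397 and 459 RPKM in TAM and 2.02 and 14.4 RPKM in LLC (log2 difference 5.97, SE 0.66, adjusted p = 0.000375). Csf1 stood the other way, at 61.3 and 46.6 RPKM in LLC and 6.04 and 8.35 RPKM in TAM (log2 difference -2.75, SE 0.28, adjusted p = 0.000266). Il34, the other ligand, stood at 12.1 and 9.53 RPKM in LLC and was listed at 0 and 0.515 RPKM in TAM (log2 difference -3.26, SE 0.45, adjusted p = 0.000983). All 3 pairs of libraries were without overlap. The GM-CSF receptor subunit Csf2ra was higher in TAM as well (log2 difference 5.62, SE 0.62, adjusted p = 0.000376).

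Of 31 chemokine and cytokine receptors, 25 were higher in TAM, 2 were lower and 4 did not pass (median 2.83). Ccr2, the receptor by which inflammatory monocytes leave the bone marrow, stood at 104 and 190.2 RPKM in TAM and 0.536 and 7.01 RPKM in LLC (log2 difference 5.34, SE 0.73, adjusted p = 0.00093). Cxcr4, the receptor for CXCL12, was higher as well (log2 difference 4.86, SE 0.59, adjusted p = 0.00054). The 2 lower members were Il1r1, the signalling receptor for IL-1, at 57.4 and 72.2 RPKM in LLC and 1.82 and 3.54 RPKM in TAM (log2 difference -4.19, SE 0.34, adjusted p = 0.000151), and Osmr, the receptor for oncostatin M (log2 difference -2.95, SE 0.48, adjusted p = 0.00208). The ligands of both lay on the other side. Il1b stood at 151 and 73.2 RPKM in TAM and 2.91 and 6.17 RPKM in LLC (log2 difference 4.33, SE 0.42, adjusted p = 0.000236), and Osm, which encodes oncostatin M, at 76.9 and 49.6 RPKM in TAM and 0.404 and 2.32 RPKM in LLC (log2 difference 4.86, SE 0.48, adjusted p = 0.000254).

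Chemokine genes gave 17 higher in TAM and 3 lower, of 27 tested (median 2.61). Pf4, a platelet factor also made by some macrophages, stood at 2834 and 1488 RPKM in TAM and 7.58 and 26.3 RPKM in LLC (log2 difference 7.07, SE 0.69, adjusted p = 0.000242), and Ccl6 at 3256 and 3083 RPKM in TAM and 11.5 and 69.1 RPKM in LLC (log2 difference 6.74, SE 0.75, adjusted p = 0.000378). Ppbp, the neighbour of Pf4 in the chemokine family, stood at 449.6 and 253 RPKM in TAM and 2.23 and 1.73 RPKM in LLC (log2 difference 6.83, SE 0.40, adjusted p = 0.000113). The 3 chemokines lower in TAM were Ccl11, which attracts eosinophils, at 102 and 98 RPKM in LLC and 5.13 and 18.8 RPKM in TAM (log2 difference -3.20, SE 0.51, adjusted p = 0.00187), the membrane-bound Cx3cl1 (log2 difference -3.09, SE 0.31, adjusted p = 0.000268) and Ccl25 (log2 difference -1.34, SE 0.25, adjusted p = 0.00378). The receptor of Cx3cl1, Cx3cr1, lay on the TAM side (log2 difference 2.83, SE 0.51, adjusted p = 0.00335). Ccl2, the ligand of Ccr2, was abundant in both populations, at 878 and 607 RPKM in TAM and 383 and 263 RPKM in LLC. It did not pass (log2 difference 1.20, SE 0.43, adjusted p = 0.0562), but was called higher in 5 alternatives, among them without the Total tumor libraries (adjusted p = 0.0321) and after upper-quartile rescaling (adjusted p = 0.0201), in a range across the alternatives from 0.0201 to 0.495.

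Cytokine genes gave 16 higher in TAM and 4 lower, of 26 tested (median 2.07). Tnf, the main inflammatory cytokine of macrophages, stood at 41.4 and 20.2 RPKM in TAM and 0 and 1.31 RPKM in LLC (log2 difference 4.30, SE 0.50, adjusted p = 0.000448). Il10, which dampens inflammation, stood at 46.7 and 13.4 RPKM in TAM and was listed at 0 in both LLC libraries, so no fold is given for it. Il33, an alarm cytokine held in the nucleus, was lower in TAM, at 77.7 and 96.5 RPKM in LLC and 3.37 and 7.77 RPKM in TAM (log2 difference -3.82, SE 0.43, adjusted p = 0.000397). Csf1, Il34 and Il11 were the other lower members. The Il11 call (adjusted p = 0.0232, 2.43 and 1.2 RPKM in LLC and listed at 0 in both TAM libraries) ended without TAM 1 (adjusted p = 0.0962), TAM 2 (0.0913) or LLC 1 (0.143), in a range across the alternatives from 0.00604 to 0.143.

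**Figure D3:**
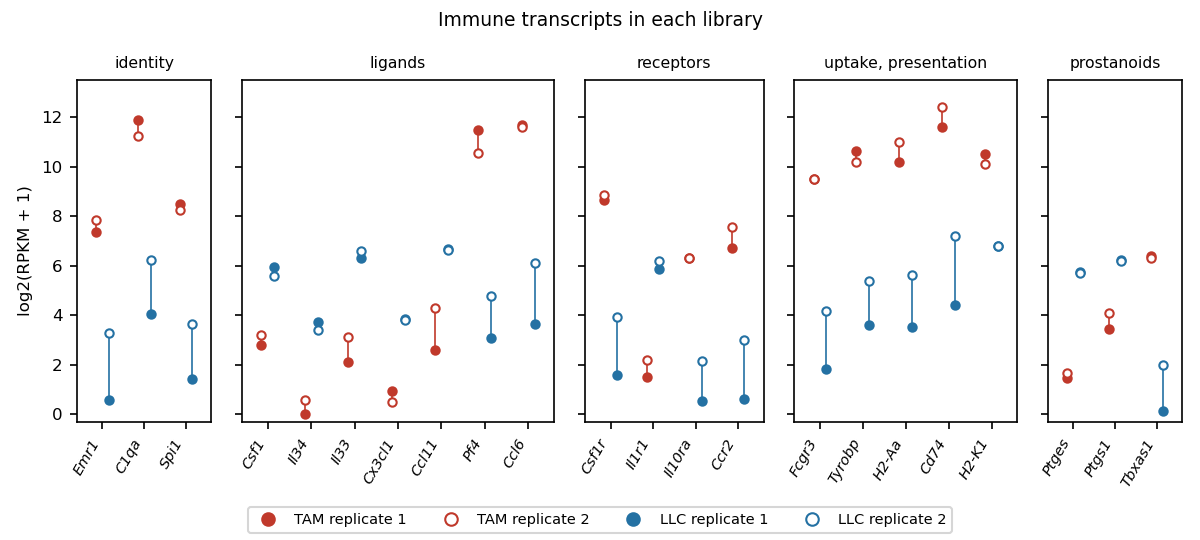
RPKM of 22 immune genes in each library as log2(RPKM + 1), in panels by role: red for TAM, blue for LLC, filled for replicate 1 and open for replicate 2, with a line joining the replicates. Csf1, Il34, Il33, Cx3cl1, Ccl11, Il1r1, Ptges and Ptgs1 lie higher in LLC and the other 14 higher in TAM (Il10ra was chosen after its values were seen), and most of those 14 lie higher in LLC 2 than in LLC 1.

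Receptors that bind antibody and their signalling proteins were higher in TAM without exception among the 26 tested (median 5.04), also with each TAM or LLC library left out. Fcgr3, the low-affinity receptor for IgG, stood at 724 and 718 RPKM in TAM and 2.57 and 17.1 RPKM in LLC (log2 difference 6.49, SE 0.76, adjusted p = 0.000457). Fcer1g, the signalling chain it pairs with, stood at 2543 and 1869 RPKM in TAM and 7.37 and 68.9 RPKM in LLC (log2 difference 6.49, SE 0.99, adjusted p = 0.00156), and Tyrobp, the DAP12 adaptor, at 1607 and 1169 RPKM in TAM and 11.2 and 41.2 RPKM in LLC (log2 difference 5.92, SE 0.73, adjusted p = 0.000595). Syk, the kinase these chains recruit, had lower levels, 74.4 and 82.6 RPKM in TAM against 1.15 and 3.11 RPKM in LLC (log2 difference 4.74, SE 0.32, adjusted p = 0.000119). Trem2, a lipid-sensing receptor that signals through DAP12, stood at 355 and 194 RPKM in TAM and 1.06 and 7.08 RPKM in LLC (log2 difference 6.01, SE 0.86, adjusted p = 0.00115). PU.1 binds purine-rich ETS motifs, and one such run of letters, GAGGAAG or its reverse complement CTTCCTC, was searched for on both strands in RefSeq promoter windows of 250 bases before to 50 after each gene's start (GRCm38.p6). It was found in 10 of the 19 list members with a window (52.6%) and in 16.2% of the 9990 protein-coding genes tested that had one. Among other lists it was found in 5 of 10 fatty acid synthesis genes (50.0%), a list with no gene higher in TAM, in 4 of 16 lineage transcription factors and in 0 of 7 class II genes. The 150 bases before the start of Fcgr3 are shown because they hold the motif at their very end, in capitals (chr1:171059404-171059553, minus strand of GRCm38.p6):
Fcgr3 promoter: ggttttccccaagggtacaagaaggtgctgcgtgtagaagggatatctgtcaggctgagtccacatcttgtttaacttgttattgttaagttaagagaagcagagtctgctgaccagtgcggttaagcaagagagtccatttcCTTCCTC

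Presentation of peptides to T cells followed the same direction. All 10 class II genes were higher in TAM (median 5.05), and between 7 and 8 of them when 1 TAM or LLC library was left out. Cd74, the invariant chain, reached 3087 and 5459 RPKM in TAM and 20.6 and 145 RPKM in LLC (log2 difference 6.20, SE 0.80, adjusted p = 0.000714). The chains H2-Aa, H2-Ab1 and H2-Eb1 gave log2 values of 6.03, 6.08 and 5.83 (adjusted p = 0.00031, 0.000441 and 0.000397). H2-Aa stood at 1164 and 2068 RPKM in TAM 1 and TAM 2 and H2-Eb1 at 704 and 1156 RPKM, each higher in TAM 2. Class II promoters are known for a CCAAT-type box that the factor NF-Y binds. CCAAT or its reverse complement ATTGG was present in 7 of 7 class II genes with a promoter window and in 42.9% of all genes with one. H2-Eb1 is shown because its last 60 bases hold the letters on both strands (chr17:34305717-34305866, plus strand of GRCm38.p6, with CCAAT and ATTGG in capitals):
H2-Eb1 promoter: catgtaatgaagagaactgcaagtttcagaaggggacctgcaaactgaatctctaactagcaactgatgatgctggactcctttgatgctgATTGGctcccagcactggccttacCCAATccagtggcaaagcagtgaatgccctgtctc

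Of 16 class I genes, 12 were higher in TAM and 4 did not pass (median 1.64). Without TAM 1 or without LLC 2 the higher genes numbered 6 each. Psmb8, a catalytic subunit of the immunoproteasome, stood at 218 and 173 RPKM in TAM and 10.5 and 11.5 RPKM in LLC (log2 difference 4.03, SE 0.35, adjusted p = 0.00018), and Tap1, the peptide transporter, at 97.5 and 96.9 RPKM in TAM and 13.8 and 15.4 RPKM in LLC (log2 difference 2.66, SE 0.21, adjusted p = 0.000147). H2-K1, a class I heavy chain, stood at 1466 and 1116 RPKM in TAM and 111 and 109 RPKM in LLC (log2 difference 3.52, SE 0.36, adjusted p = 0.000271). B2m, the light chain, was among the most abundant transcripts of both populations, at 5993 and 5129 RPKM in TAM and 2013 and 1691 RPKM in LLC, and did not pass (log2 difference 1.59, SE 0.67, adjusted p = 0.0931). It passed in 4 alternatives, among them without the Total tumor libraries (adjusted p = 0.00672) and after upper-quartile rescaling (0.024). The adjusted p ranged across the alternatives from 0.00332 to 0.82. The class I heavy chains are near-identical copies, and how their shared reads were counted is not given in the sources used here, so the level of each is uncertain.

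Most complement genes were higher in TAM. The C1q chains C1qa, C1qb and C1qc reached 1949.9 to 3833 RPKM in TAM and 8.79 to 76.4 RPKM in LLC, with log2 differences of 6.42, 6.53 and 6.52 (adjusted p = 0.00091, 0.000656 and 0.00093). Itgam, a chain of complement receptor 3, stood at 320.1 and 472 RPKM in TAM and 1.67 and 12 RPKM in LLC (log2 difference 6.05, SE 0.66, adjusted p = 0.000354). C3, the central component, did not pass, with 45.8 and 119 RPKM for TAM and 22.8 and 79.7 RPKM for LLC (log2 difference 0.77, SE 0.83, adjusted p = 0.488). In all, 13 of 21 were higher and 3 were lower (median 1.91). The 3 lower members, among them C2 and C1s1 (log2 -0.94 and -2.31), all lost their call without TAM 1, LLC 1 or LLC 2. C2 (adjusted p = 0.0415) lost it in 10 of the alternatives, among them the replicate block (adjusted p = 0.0624) and the fit of TAM and LLC libraries only (0.0558), in a range from 0.0262 to 0.23. C1s1 (adjusted p = 0.0238) also lost it in the latter (0.0728), in a range from 0.00421 to 0.125.

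Toll-like receptors and their adaptors were higher in 19 of 23, with 0 lower (median 2.67). Cd14, the co-receptor for bacterial lipopolysaccharide, stood at 556 and 295 RPKM in TAM and 7.91 and 10.1 RPKM in LLC (log2 difference 5.35, SE 0.35, adjusted p = 0.000119). Tlr2 and Tlr13 were far apart in the groups (4.51 and 4.68, adjusted p = 0.000178 and 0.000236), whereas Tlr4, the lipopolysaccharide receptor itself, was found in both, at 28.2 and 38.6 RPKM in TAM and 9.95 and 12.2 RPKM in LLC (log2 difference 1.5, SE 0.38, adjusted p = 0.0147). The Tlr4 call ended without TAM 2 (adjusted p = 0.0928), LLC 1 (0.0908) or LLC 2 (0.0515), in a range from 0.00815 to 0.0928.

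Interferon-stimulated genes leaned to the TAM side, though not every member did. Of 30, 17 were higher in TAM (56.7%, beside 15.4% of all genes tested), 1 was lower and 12 did not pass (median 1.22). The higher ones numbered 20 after upper-quartile rescaling, 16 after quantile normalization and 24 without the Total tumor libraries. Fewer than 17 were higher with any 1 TAM or LLC library left out. Irf7, the factor that amplifies interferon production, stood at 479 and 318 RPKM in TAM and 50.6 and 45.2 RPKM in LLC (log2 difference 3.0, SE 0.33, adjusted p = 0.000382), and Oasl1 had a log2 difference of 3.19 (adjusted p = 0.000177). Ifit1, which binds viral RNA, lay at like levels in all 4 libraries, 35.8 and 31.1 RPKM in TAM and 28.3 and 29.8 RPKM in LLC (log2 difference 0.19, SE 0.21, adjusted p = 0.499). Ifi44 was the lower one, at 36.6 and 35.5 RPKM in LLC and 8.16 and 8.46 RPKM in TAM (log2 difference -1.99, SE 0.27, adjusted p = 0.000953).

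Checkpoint and co-stimulatory molecules were higher in TAM in 11 of 16 and lower in 1 (median 2.61). Cd274, which encodes PD-L1, stood at 32.9 and 41.3 RPKM in TAM and 4.29 and 5.19 RPKM in LLC (log2 difference 2.73, SE 0.28, adjusted p = 0.000289), and Cd86, a ligand that co-stimulates T cells, at 28.1 and 25.8 RPKM in TAM and 0.456 and 0.828 RPKM in LLC (log2 difference 4.10, SE 0.27, adjusted p = 0.000119). Cd276, which encodes B7-H3, was the lower one, at 42.5 and 42.3 RPKM in LLC and 8.44 and 4.49 RPKM in TAM (log2 difference -2.59, SE 0.29, adjusted p = 0.000376).

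The phagocyte oxidase and the eicosanoid enzymes gave 11 higher and 2 lower of 17 (median 4.05), the same counts with any 1 TAM or LLC library left out. The oxidase subunit Cybb stood at 70.9 and 120.3 RPKM in TAM and 0.771 and 4.47 RPKM in LLC (log2 difference 4.91, SE 0.51, adjusted p = 0.000298), and Ncf1, another subunit, at 165 and 186 RPKM in TAM and 1.35 and 6.27 RPKM in LLC (log2 difference 5.41, SE 0.51, adjusted p = 0.000217). Alox5ap, which hands arachidonic acid to the leukotriene enzyme, stood at 763 and 729 RPKM in TAM and 8.16 and 22 RPKM in LLC (log2 difference 5.69, SE 0.65, adjusted p = 0.000435). Prostanoid enzymes lay on both sides. Ptgs1, which makes prostaglandin H2, stood at 74.5 and 71.7 RPKM in LLC and 9.97 and 16 RPKM in TAM (log2 difference -2.44, SE 0.30, adjusted p = 0.000614). Ptges, which turns it into prostaglandin E2, stood at 52.2 and 50.8 RPKM in LLC and 1.76 and 2.2 RPKM in TAM (log2 difference -4.14, SE 0.23, adjusted p = 0.000107). Tbxas1, which turns the same intermediate into thromboxane, stood at 84.1 and 78.1 RPKM in TAM and 0.098 and 2.96 RPKM in LLC (log2 difference 5.30, SE 0.60, adjusted p = 0.000422).

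Markers of other immune cells lay beside these lists. Of 6 tested neutrophil markers 4 were higher in TAM (2 without TAM 1), with a summed level of 86.8 and 74.8 RPKM in TAM and 1.82 and 6.07 RPKM in LLC, and Camp, chosen after its values were seen, was listed at 0 in all 4 libraries. Of 8 tested B and plasma cell markers 1 was higher in TAM (0 without TAM 1, LLC 1 or LLC 2, 2 without TAM 2), with a summed level of 65.6 and 22.5 RPKM in TAM and 1.39 and 1.84 RPKM in LLC. T and NK cell markers were higher in 2 of 8 (1 without any 1 of the 4 libraries, summed 21.4 and 32.0 against 3.09 and 4.73 RPKM), mast cell markers in 4 of 5 (1 without TAM 1 or LLC 1, 2 without LLC 2, summed 21.8 and 10.4 against 0.179 and 0.769 RPKM), and dendritic cell markers in 2 of 7 with 1 lower (summed 29.3 and 48.3 against 8.82 and 13.2 RPKM). The dissociation stress list gave 7 higher and 0 lower of 16 (3 higher without TAM 1 or without LLC 2), with a summed level of 6409 and 3610.1 RPKM in TAM and 1569 and 1101 RPKM in LLC. Vessel markers gave 1 higher of 11 (endothelial, 3 without TAM 1) and 0 of 8 (pericyte), and erythroid markers 0 of 4. The part of these markers in the immune differences was not tested.

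Turning to metabolism, most genes of glucose breakdown did not pass, which also held over all genes tested, of which 42.9% were called. Of 24 glycolysis and lactate genes, 5 were higher in TAM, 3 were lower and 16 did not pass (median 0.21). Hk3, the hexokinase of myeloid cells, stood at 138 and 109.9 RPKM in TAM and 0.401 and 3.32 RPKM in LLC (log2 difference 5.66, SE 0.52, adjusted p = 0.00021), while Hk2 stood at 18.4 and 28.3 RPKM in TAM and 23.9 and 35.3 RPKM in LLC (log2 difference -0.34, SE 0.40, adjusted p = 0.534) and the glucose transporter gene Slc2a1 at 120.2 and 148 RPKM in TAM and 89.9 and 152 RPKM in LLC (log2 difference 0.19, SE 0.34, adjusted p = 0.693). Pfkfb3, which makes the activator of phosphofructokinase, was higher in TAM (log2 difference 2.41, SE 0.31, adjusted p = 0.000681) and Pfkm, a phosphofructokinase subunit, lower (log2 difference -2.18, SE 0.28, adjusted p = 0.000698). The lactate transporters lay on opposite sides. Slc16a3, known for lactate export, stood at 132 and 138 RPKM in TAM and 6.94 and 20.3 RPKM in LLC (log2 difference 3.38, SE 0.59, adjusted p = 0.00303), and Slc16a1 at 3.58 and 4.59 RPKM in TAM and 55.6 and 51.2 RPKM in LLC (log2 difference -3.42, SE 0.22, adjusted p = 0.000119).

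In the pentose phosphate pathway 3 of 8 were higher and 0 lower (median 0.36), and without TAM 1, LLC 1 or LLC 2 the higher genes numbered 1. G6pdx, the entry enzyme that yields NADPH, stood at 67 and 73.4 RPKM in TAM and 26.2 and 23.7 RPKM in LLC (log2 difference 1.46, SE 0.22, adjusted p = 0.00145).

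Of all genes tested, 15.4% were higher and 27.5% lower, beside lower shares of 4.2% and 20.8% of the 24 citric acid cycle genes. Of these 24 genes, 1 was higher and 5 lower (median -0.51). Their count of lower genes was 2 with any 1 TAM or LLC library left out and after upper-quartile rescaling, and 12 without the Total tumor libraries. Irg1, which diverts aconitate to itaconate in activated macrophages, was the higher one, at 13.4 and 15.8 RPKM in TAM and 0.074 and 1.08 RPKM in LLC (log2 difference 3.38, SE 0.36, adjusted p = 0.000327). Suclg2, the GTP-forming succinate ligase subunit, was lower, at 3.34 and 4.03 RPKM in TAM and 18.3 and 16.4 RPKM in LLC (log2 difference -1.97, SE 0.24, adjusted p = 0.000513). Of 71 oxidative phosphorylation genes, 1 was higher and 2 lower (median 0.05). After quantile normalization 3 were higher and 10 lower, without the Total tumor libraries 6 and 7, and 0 were higher without any 1 of the 4 libraries, with 0 lower without TAM 1 or LLC 2 and 1 lower without TAM 2 or LLC 1. Of 18 fatty acid oxidation genes, 1 was higher and 1 lower (median 0.02). The higher ones numbered 0 without any 1 of the 4 libraries or with the replicate block, and without the Total tumor libraries 2 were higher and 4 lower. The lower one was Hadh, a dehydrogenase of short acyl chains, at 20.6 and 17.4 RPKM in TAM and 56.9 and 46.7 RPKM in LLC (log2 difference -1.40, SE 0.27, adjusted p = 0.00457).

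**Figure D4:**
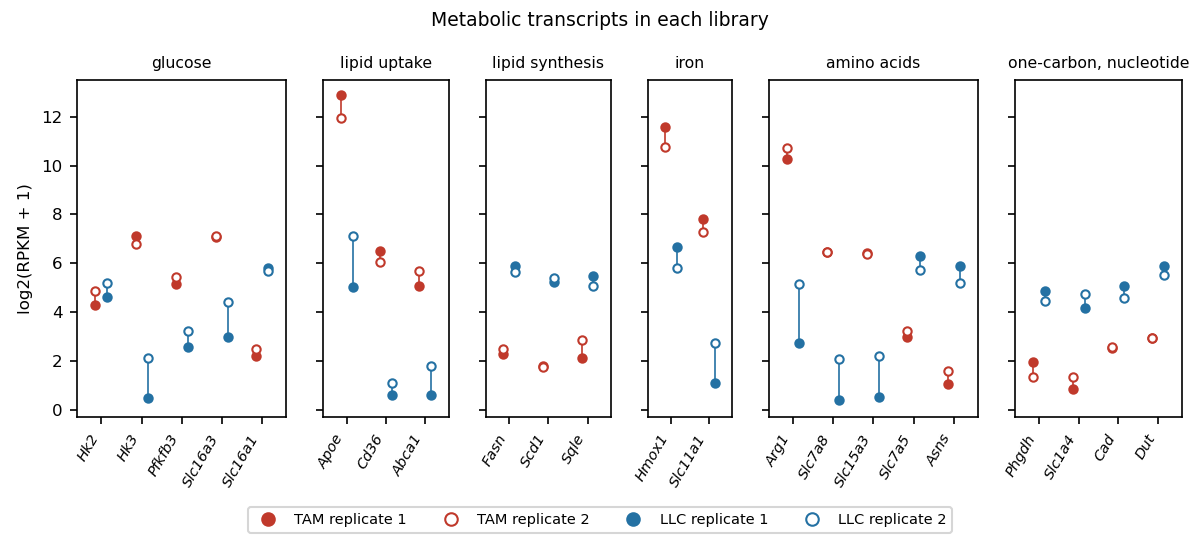
RPKM of 22 metabolic genes in each library as log2(RPKM + 1), in panels by pathway, with the colours and symbols of the immune plot. Genes of lipid uptake and iron lie higher in TAM and those of lipid synthesis lower, while glucose and amino acid genes lie on both sides and Hk2 at like levels.

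Of 20 genes of lipid uptake, storage and efflux, 18 were higher in TAM, 0 lower and 2 did not pass (median 2.79). Apoe, the apolipoprotein that carries lipid out of macrophages, was among the most abundant transcripts of TAM, at 7612 and 3971 RPKM, and stood at 31.7 and 137 RPKM in LLC (log2 difference 6.36, SE 0.86, adjusted p = 0.000906). Cd36 and Msr1, scavenger receptors for modified lipoproteins, differed by log2 values of 5.42 and 5.71 (adjusted p = 0.000137 and 0.000134). Lpl, which frees fatty acids from lipoproteins, stood at 86.2 and 78.5 RPKM in TAM and 3.52 and 5.24 RPKM in LLC (log2 difference 3.97, SE 0.29, adjusted p = 0.000131), and Abca1, the cholesterol exporter, at 32.3 and 50.2 RPKM in TAM and 0.536 and 2.46 RPKM in LLC (log2 difference 4.16, SE 0.49, adjusted p = 0.000487).

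Called genes of lipid synthesis were lower in TAM with 1 exception. Of 13 fatty acid synthesis genes, 8 were lower and 0 higher (median -1.67), and 7 were lower with any 1 TAM or LLC library left out. Fasn, the fatty acid synthase, stood at 58.5 and 48.9 RPKM in LLC and 3.85 and 4.57 RPKM in TAM (log2 difference -3.39, SE 0.24, adjusted p = 0.000127). Scd1, a desaturase, stood at 36.7 and 41.8 RPKM in LLC and 2.46 and 2.4 RPKM in TAM (log2 difference -3.55, SE 0.25, adjusted p = 0.000125), and the elongase gene Elovl6 had a log2 difference of -3.14 (adjusted p = 0.000191). Of 21 sterol synthesis genes, 11 were lower and 1 higher (median -1.16), with 7 lower without TAM 1 and 0 higher without TAM 2 or LLC 1. Sqle, the squalene epoxidase, stood at 43.1 and 32.5 RPKM in LLC and 3.41 and 6.28 RPKM in TAM (log2 difference -2.76, SE 0.31, adjusted p = 0.000397), and the late enzymes Sc5d and Cyp51 gave log2 values of -2.30 and -1.92 (adjusted p = 0.000546 and 0.00124). Hmgcs1, an early enzyme of the pathway, was listed at 0 in all 8 libraries, so a listed 0 need not mean that a gene is silent. The higher one was Ebp, a sterol isomerase (log2 difference 1.82, SE 0.41, adjusted p = 0.00966). NF-Y also acts with the sterol factor SREBP at such promoters. CCAAT or ATTGG was found in 14 of the 14 sterol genes with a window, beside the 42.9% of all genes given above. The 150 bases before the start of Sc5d are shown as an example, with the match in capitals (chr9:42264301-42264450, minus strand of GRCm38.p6):
Sc5d promoter: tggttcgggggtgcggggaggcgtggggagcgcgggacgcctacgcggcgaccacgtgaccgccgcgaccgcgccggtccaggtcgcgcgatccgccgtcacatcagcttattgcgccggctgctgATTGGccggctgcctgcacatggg

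Iron and heme genes gave 10 higher in TAM and 2 lower, of 21 tested (median 1.73, and 0.68 after quantile normalization, with 1 lower without TAM 1, TAM 2 or LLC 1 or after either rescaling). Hmox1, which opens heme and frees its iron, stood at 3075 and 1715 RPKM in TAM and 99.9 and 55 RPKM in LLC (log2 difference 4.93, SE 0.48, adjusted p = 0.000239). Slc11a1, the iron pump of phagosomes, stood at 225 and 155 RPKM in TAM and 1.18 and 5.59 RPKM in LLC (log2 difference 5.64, SE 0.52, adjusted p = 0.000203), Cd163, the hemoglobin scavenger receptor, at 112 and 147 RPKM in TAM and 0.394 and 2.65 RPKM in LLC (log2 difference 5.84, SE 0.52, adjusted p = 0.000187), and Slc40a1, the iron exporter ferroportin, at 27.5 and 10.7 RPKM in TAM and 0.456 and 0.207 RPKM in LLC (log2 difference 3.78, SE 0.47, adjusted p = 0.00061). The last differed between the TAM libraries by more than the others. Tfrc, the transferrin receptor that brings iron in, did not pass, with 8.88 and 7.83 RPKM for TAM and 13.8 and 16.3 RPKM for LLC (log2 difference -0.77, SE 0.30, adjusted p = 0.0719). It was lower in the fit of TAM and LLC libraries only (adjusted p = 0.0357) and without the Total tumor libraries (0.0241), in a range from 0.0241 to 0.324. Cp, a copper oxidase that loads iron onto transferrin, was lower in TAM, at 30.4 and 37.4 RPKM in LLC and 8.11 and 4.9 RPKM in TAM (log2 difference -2.24, SE 0.38, adjusted p = 0.00242).

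Arg1, which splits arginine into ornithine and urea, stood at 1230.1 and 1661 RPKM in TAM and 5.63 and 34.9 RPKM in LLC (log2 difference 6.54, SE 0.81, adjusted p = 0.000596). Nos2, which uses the same arginine for nitric oxide, did not pass, with 8.71 and 13 RPKM for TAM and 4.85 and 8.81 RPKM for LLC (log2 difference 0.62, SE 0.34, adjusted p = 0.18). The spermidine and spermine synthases lay lower in TAM. Srm, the spermidine synthase, stood at 124 and 81.8 RPKM in LLC and 27.3 and 24.5 RPKM in TAM (log2 difference -1.92, SE 0.40, adjusted p = 0.00691), and lost its call without LLC 1 (adjusted p = 0.0588, range 0.000635 to 0.0588). Sms, the spermine synthase, had a log2 difference of -1.71 (adjusted p = 0.00251). Sat1, which breaks polyamines down, was higher, at 166 and 134 RPKM in TAM and 51.3 and 43.3 RPKM in LLC (log2 difference 1.64, SE 0.33, adjusted p = 0.00596). Over the list of 14, 3 were higher and 5 lower (21.4% and 35.7%, beside 15.4% and 27.5% of all genes tested). The list median was -0.18, and 0.02 and -0.01 after upper-quartile rescaling and quantile normalization. Fewer genes were lower with any 1 TAM or LLC library left out.

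Serine and one-carbon enzymes, which supply nucleotide synthesis, were lower in 12 of 16 and higher in 2 (median -1.57). The lower genes numbered 10 after upper-quartile rescaling and 10 after quantile normalization. Fewer than 12 were lower with any 1 TAM or LLC library left out, and fewer were higher without LLC 1. Phgdh, the first enzyme of serine synthesis, stood at 28.2 and 21.3 RPKM in LLC and 2.95 and 1.56 RPKM in TAM (log2 difference -3.0, SE 0.37, adjusted p = 0.000606), and Shmt2, which passes the carbon of serine on in mitochondria, at 125 and 78.2 RPKM in LLC and 19.6 and 22.5 RPKM in TAM (log2 difference -2.18, SE 0.35, adjusted p = 0.00189). Slc1a4, a serine and alanine transporter, stood at 16.9 and 26.2 RPKM in LLC and 0.833 and 1.54 RPKM in TAM (log2 difference -3.36, SE 0.31, adjusted p = 0.000196). Purine and pyrimidine synthesis gave 15 lower and 1 higher of 22 (median -1.35, with 0 higher without TAM 1, LLC 1 or LLC 2). Cad, which starts pyrimidine synthesis, stood at 32.9 and 22.9 RPKM in LLC and 4.84 and 4.96 RPKM in TAM (log2 difference -2.27, SE 0.26, adjusted p = 0.000445), and Dut, which keeps uracil out of DNA, at 57.8 and 44.5 RPKM in LLC and 6.77 and 6.62 RPKM in TAM (log2 difference -2.75, SE 0.35, adjusted p = 0.000672).

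Amino acid transporters differed by member. Of 21 genes, 7 were higher in TAM and 10 lower (median -0.52), with 4 lower without TAM 1, 3 without LLC 1 and 6 without LLC 2. Slc7a8 and Slc7a5 are alternative light chains of the same large neutral amino acid transporter. Slc7a8 stood at 87.8 and 87.4 RPKM in TAM and 0.31 and 3.24 RPKM in LLC (log2 difference 5.23, SE 0.52, adjusted p = 0.000252), and Slc7a5 at 6.86 and 8.4 RPKM in TAM and 77.8 and 52.2 RPKM in LLC (log2 difference -2.91, SE 0.30, adjusted p = 0.0003). Their shared heavy chain Slc3a2 did not pass, with 186 and 135 RPKM for TAM and 104 and 72.8 RPKM for LLC (log2 difference 0.85, SE 0.36, adjusted p = 0.0917), but was higher after upper-quartile rescaling (adjusted p = 0.0223) and without the Total tumor libraries (0.0234), in a range from 0.0223 to 0.368. The lysosomal exporters Slc15a3, for histidine and peptides, and Slc36a1, for small amino acids, were higher in TAM (5.04 and 3.09, adjusted p = 0.000387 and 0.000179). Asns, the asparagine synthetase, had the list's lowest log2 difference, at 58.9 and 35.6 RPKM in LLC and 1.1 and 1.98 RPKM in TAM (log2 difference -4.23, SE 0.34, adjusted p = 0.00014). Glul, which makes glutamine, was higher in TAM, at 122 and 109 RPKM in TAM and 30.4 and 26.8 RPKM in LLC (log2 difference 1.98, SE 0.22, adjusted p = 0.000369).

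Most genes that copy DNA and divide the cell were lower in TAM. Of 32 DNA replication genes, 24 were lower and 0 higher (median -1.32, with 12 lower without LLC 1). Mcm2, a subunit of the replicative helicase, stood at 58.1 and 43.1 RPKM in LLC and 17.2 and 17.6 RPKM in TAM (log2 difference -1.48, SE 0.29, adjusted p = 0.00483), and Mcm6, another subunit, at 111 and 107 RPKM in LLC and 28.5 and 30 RPKM in TAM (log2 difference -1.87, SE 0.22, adjusted p = 0.000521). Uhrf1, which carries DNA methylation through replication, had a log2 difference of -2.04 (adjusted p = 0.00115). Pcna, the sliding clamp, did not pass, at 76.7 and 55 RPKM in LLC and 45.7 and 45 RPKM in TAM (log2 difference -0.51, SE 0.24, adjusted p = 0.129). Cdc6, which loads the helicase, stood at 5.59 and 4.94 RPKM in LLC and 1.06 and 1.73 RPKM in TAM (log2 difference -1.40, SE 0.27, adjusted p = 0.00492). Replication genes are known targets of E2F factors. The E2F-type letters TTCCCGC or GCGGGAA were found on either strand in 48.0% of the 25 replication genes with a promoter window and in 9.69% of all genes with one. Cdc6 is shown with its match in capitals (chr11:98908001-98908150, plus strand of GRCm38.p6):
Cdc6 promoter: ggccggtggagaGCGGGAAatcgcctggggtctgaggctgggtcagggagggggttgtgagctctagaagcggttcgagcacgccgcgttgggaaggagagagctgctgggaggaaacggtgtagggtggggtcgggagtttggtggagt

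Of 32 mitosis genes, 27 were lower and 0 higher (median -1.57). The lower genes numbered 8 without LLC 1, 15 without TAM 1, 16 without TAM 2 and 24 without LLC 2. Top2a, the topoisomerase that untangles chromosomes, stood at 94.6 and 73.2 RPKM in LLC 1 and LLC 2 and 17.6 and 19.3 RPKM in TAM 1 and TAM 2 (log2 difference -2.11, SE 0.34, adjusted p = 0.00188). Cdc20, which starts anaphase, stood at 40.9 and 23.6 RPKM in LLC and 7.5 and 6.67 RPKM in TAM (log2 difference -1.99, SE 0.35, adjusted p = 0.00287), and Anln, an actin-binding protein of the cleavage furrow, at 31.1 and 31.2 RPKM in LLC and 3.13 and 4.67 RPKM in TAM (log2 difference -2.73, SE 0.44, adjusted p = 0.00211). Mki67, the proliferation marker Ki-67, was present in both populations, at 37.4 and 30.9 RPKM in LLC and 10.2 and 10.9 RPKM in TAM (log2 difference -1.60, SE 0.48, adjusted p = 0.0293), and lost its call in 7 alternatives, in a range of adjusted p from 0.00102 to 0.141. Mitotic genes are known for a cell cycle homology region (CHR) beside CCAAT boxes. The CHR letters TTTGAA or TTCAAA were found on either strand in 70.4% of the 27 mitosis genes with a window and in 14.4% of all genes with one, and both CHR and CCAAT letters in 59.3% and 7.16%. Cdc20 and Top2a are shown because a CHR match lies within 30 bases of each start. The CHR letters begin 18 (Cdc20) and 23 (Top2a) bases before the start, and the nearest CCAAT or ATTGG letters 8 and 58. All such letters are in capitals (chr4:118437344-118437493 and chr11:99024190-99024339, both on the minus strand of GRCm38.p6):
Cdc20 promoter: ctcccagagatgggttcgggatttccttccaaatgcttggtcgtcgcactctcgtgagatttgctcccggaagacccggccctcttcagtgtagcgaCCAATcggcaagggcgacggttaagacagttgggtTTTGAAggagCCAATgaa
Top2a promoter: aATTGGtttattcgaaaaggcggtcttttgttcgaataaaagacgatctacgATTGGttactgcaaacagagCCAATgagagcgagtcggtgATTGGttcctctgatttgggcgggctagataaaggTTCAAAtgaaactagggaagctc

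**Figure D5:**
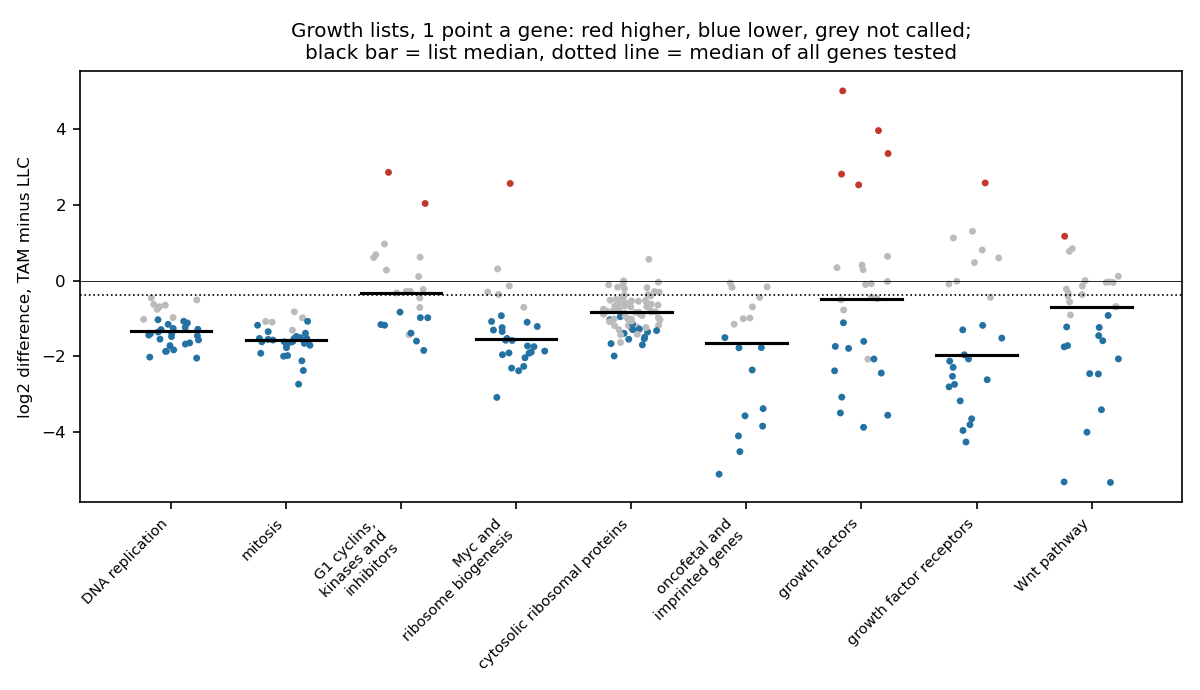
Log2 difference (TAM minus LLC) of every tested member of the 9 growth lists, 1 point a gene, red where called higher, blue where called lower and grey where not called. Black bars are list medians, the dotted line is the median of all genes tested (-0.38), and the medians of mitosis (-1.57) and of growth factor receptors (-1.96) lie below it.

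Called regulators of the G1 phase lay on both sides, 8.7% higher and 34.8% lower, beside 15.4% and 27.5% of all genes tested. The list median was 0.06 above that of all genes. Of 23, 2 were higher and 8 lower (median -0.32), and the lower ones numbered 3 without TAM 1, 5 without TAM 2, 1 without LLC 1, 4 without LLC 2 and 5 after quantile normalization. The higher ones numbered 1 without TAM 2 or LLC 1 and 4 after upper-quartile rescaling. Cdkn1a, the p21 inhibitor of cyclin-dependent kinases, stood at 246 and 177 RPKM in TAM and 28.2 and 27.7 RPKM in LLC (log2 difference 2.86, SE 0.27, adjusted p = 0.000234). Cdk4, the kinase partner of cyclin D, stood at 352 and 300.2 RPKM in LLC and 96.7 and 83.9 RPKM in TAM (log2 difference -1.84, SE 0.39, adjusted p = 0.00679), and lost its call without LLC 1 (adjusted p = 0.0531, range 0.000133 to 0.0531). Cdkn2a was listed at 0 in all 4 libraries.

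Myc and the genes of ribosome assembly were lower in TAM in 22 of 28 and higher in 1 (median -1.55, with 14 lower without LLC 1). Myc stood at 345 and 222 RPKM in LLC and 40.2 and 25.3 RPKM in TAM (log2 difference -3.08, SE 0.45, adjusted p = 0.00129). Nop58 and Dkc1, which guide RNA modification, differed by log2 values of -2.31 and -2.38, and Polr1a, the large subunit of RNA polymerase I, -2.26 (adjusted p = 0.000264, 0.00123 and 0.000486). Mxd1, which competes with Myc for its partner protein, was the higher one, at 25.9 and 21.9 RPKM in TAM and 2.6 and 3.9 RPKM in LLC (log2 difference 2.56, SE 0.28, adjusted p = 0.000343). Of 77 cytosolic ribosomal protein genes, 16 were lower and 0 higher (median -0.83). That is 20.8%, below the background of lower genes. The lower ones numbered 40 after quantile normalization, 44 without the Total tumor libraries, and 7, 4, 3 and 5 without TAM 1, TAM 2, LLC 1 and LLC 2. These genes have many processed pseudogenes, so the deposited level of each is uncertain.

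Oncofetal genes, which are active before birth and silent in most adult cells, were listed together with imprinted genes. Of 18 tested, 10 were lower and 0 higher (median -1.63). H19, an imprinted noncoding RNA, had the lowest log2 difference of the list and stood at 133 and 373 RPKM in LLC 1 and LLC 2 and at 4.46 and 6.74 RPKM in TAM (log2 difference -5.11, SE 0.61, adjusted p = 0.000513). Hmga2, whose levels are given above, was also lower (log2 difference -4.10, SE 0.23, adjusted p = 0.000113). Sgce, an imprinted sarcoglycan gene, stood at 20.9 and 21.6 RPKM in LLC and 0.346 and 0.795 RPKM in TAM (log2 difference -3.84, SE 0.24, adjusted p = 0.000114), and Igf2bp1, which stabilizes growth messages, at 2.46 and 3.06 RPKM in LLC and 0.153 and 0.053 RPKM in TAM (log2 difference -1.76, SE 0.28, adjusted p = 0.00178). Igf2, the neighbour of H19, was listed at 0 in both TAM libraries and at 0.599 and 1.51 RPKM in LLC, and did not pass (adjusted p = 0.0658), but passed with a pseudocount of 0.1 (adjusted p = 0.019) and in the fit of TAM and LLC libraries only (0.0358), in a range from 0.019 to 0.301.

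Of 28 growth factors, 5 were higher in TAM and 11 lower (median -0.49). These shares, 17.9% and 39.3%, stand beside 15.4% and 27.5% of all genes tested. The count of lower genes fell with LLC 1 left out. Gas6, which bridges dying cells to receptors of phagocytes, stood at 239 and 167 RPKM in TAM and 2.27 and 10.9 RPKM in LLC (log2 difference 5.01, SE 0.55, adjusted p = 0.00038). Igf1 stood at 25.7 and 16.3 RPKM in TAM and 0.622 and 1.72 RPKM in LLC (log2 difference 3.35, SE 0.42, adjusted p = 0.000614), and Pdgfb at 10.6 and 8.59 RPKM in TAM and 0.262 and 0.793 RPKM in LLC (log2 difference 2.81, SE 0.39, adjusted p = 0.000968). On the LLC side, Angpt1, which steadies vessels, stood at 11 and 11.6 RPKM in LLC and 0.054 and 0.052 RPKM in TAM (log2 difference -3.55, SE 0.37, adjusted p = 0.000298), and Figf, which encodes the lymphatic factor VEGF-D, at 30.5 and 42.5 RPKM in LLC and 1.44 and 3.46 RPKM in TAM (log2 difference -3.49, SE 0.34, adjusted p = 0.000239). Vegfa was present in all 4 libraries and did not pass, with 48.7 and 40.3 RPKM for TAM and 28.9 and 41.7 RPKM for LLC (log2 difference 0.34, SE 0.30, adjusted p = 0.393).

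Of 25 growth factor receptors, 16 were lower and 1 higher (median -1.96). The receptors of the factors just named lay opposite their ligands in part. Igf1r stood at 10.6 and 12.4 RPKM in LLC and 1.77 and 2.2 RPKM in TAM (log2 difference -2.07, SE 0.41, adjusted p = 0.00548) and Pdgfra at 40 and 51.3 RPKM in LLC and 1.14 and 3.17 RPKM in TAM (log2 difference -3.95, SE 0.44, adjusted p = 0.000396). Fgfr1 stood at 187 and 189 RPKM in LLC and 26.9 and 28 RPKM in TAM (log2 difference -2.73, SE 0.22, adjusted p = 0.000149), and Met, the receptor for hepatocyte growth factor, at 15.6 and 20.9 RPKM in LLC and 1.11 and 2.56 RPKM in TAM (log2 difference -2.80, SE 0.42, adjusted p = 0.00143). Tgfbr3, a co-receptor for TGF-beta, had the lowest difference of the list (log2 difference -4.26, SE 0.47, adjusted p = 0.000369). Nrp1, a co-receptor of VEGF and semaphorins, was the higher one, at 64.4 and 65.8 RPKM in TAM and 7.65 and 13.2 RPKM in LLC (log2 difference 2.58, SE 0.28, adjusted p = 0.000358). Pdgfra also marks fibroblasts. Fibroblast markers stood in LLC 1 and LLC 2 at a median of 5.74% and 6.28% of their Fibroblast mean (14 genes) and in TAM at 0.504% and 2.65%, with 7 of 14 lower in TAM and 0 higher. Their summed level was 2275 and 2776 RPKM in LLC and 286 and 519 RPKM in TAM, and their part in the receptor differences was not tested.

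Wnt pathway genes gave 14 lower in TAM and 1 higher, of 31 tested (median -0.70, with 0 higher without TAM 2, LLC 1 or LLC 2 and 3 after quantile normalization). Beside Dkk2 and Apcdd1, Tcf7l1, a nuclear repressor of Wnt targets, stood at 51.8 and 47.9 RPKM in LLC and 2.6 and 1.81 RPKM in TAM (log2 difference -4.00, SE 0.29, adjusted p = 0.000127), and the ligand gene Wnt7b at 23.4 and 14.7 RPKM in LLC and 1.14 and 0.596 RPKM in TAM (log2 difference -3.41, SE 0.34, adjusted p = 0.000268). Axin2 and Lef1, common targets of the pathway, were low in all 4 libraries, Axin2 at 0.362 and 0.219 RPKM in LLC and 0.055 and 0.158 RPKM in TAM, and neither passed (adjusted p = 0.482 and 0.645). The epithelial keratin genes Krt8 and Krt18 were lower in TAM (log2 -3.99 and -3.71, adjusted p = 0.00558 and 0.00957, the second not called without TAM 2 or LLC 1), with Krt8 at 57.5 and 43.6 RPKM and Krt18 at 122 and 82.8 RPKM in LLC. Only 5 of the 10 epithelial markers listed could be tested, and Krt8 and Krt18 were the only calls among them. The median difference of this list was -0.53, beside -0.38 over all genes tested. Epcam, another epithelial marker, reached at most 0.454 RPKM in any of the 4 libraries.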

How the data were processed

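Gene expression was measured by RNA sequencing of oligo-dT-primed cDNA from 200 ng of RNA, read over 50 bp. The authors deposited RPKM values per transcript, and STAR, HOMER and the mouse build mm9 are named, without versions, in the submitters' processing notes. How shared reads were counted is not given in the sources used here. From 31645 transcripts, 1 was kept for each of 23952 symbols, the one whose average across all 8 libraries was largest. Differences were fitted with limma 3.58.1 (R 4.3.3) on log2(RPKM + 1) with an intensity trend, 1 fit over the 4 groups of 2 libraries, and tested on simulated data. Depth was estimated from steps between low RPKM values, and no interval was derived from it. Named genes were the 10 largest called differences in each direction (NM_ accessions, no overlap, and an RPKM averaging 10 or more on the higher side), up to 4 called members per direction and list, the first 4 genes of each list, and Emr1, C1qa, Hmga2 and Dkk2. The comparison and the lists were chosen with earlier results of these data known. Promoter sequences and their coordinates come from RefSeq (GRCm38.p6), a later build than that of the RPKM values. They were joined by RefSeq transcript, and by symbol where the transcript had no match. Some genes that meet the naming rule are not reported here.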

Additional observations from a re-analysis of the deposited data

How the results depend on the processing

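The alternatives were other pseudocounts, filters and scalings, no trend, the mean over transcripts, fewer libraries and a replicate block. A fit without the Total tumor libraries was added after seeing the data. With 1 TAM or LLC library left out, 1462 to 1605 genes were higher in TAM and 1956 to 2439 lower; the lone sample of a group is then assumed to vary like the others. With the replicate number as a block, 1895 genes were higher and 3183 lower. The labels do not say that a number marks a shared animal or batch, and the differences between replicates correlated at 0.274 between TAM and LLC, 0.206 between LLC and Fibroblast and 0.162 between Fibroblast and TAM, and at -0.361 to -0.179 between each of these and Total tumor. With a pseudocount of 0.1 and 5, 2022 and 2029 genes were higher and 3601 and 3551 lower. Without a filter 2041 of 17626 genes were higher and 3446 lower, and with RPKM of at least 5 in 2 libraries 1718 of 10431 were higher and 3126 lower. The fit of TAM and LLC libraries only gave 2244 higher and 4143 lower. Depth is an estimate, and 2 libraries a group limit the precision of every value.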
